A study of Zea mays with 322 samples.

Results

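TB-7Sc is a translocation between maize chromosome arm 7S and the supernumerary B chromosome, used to raise the number of copies of that arm. Described here are haploid plants with 2 copies of the 7S segment (7Sc_h2D, plants 7Sch1, 7Sch11, 7Sch35 and 7Sch5) and the haploid plants with 1 copy that served as their control (3La_7Sc_h1D, plants Hh57, Hh58 and Hh60). They are all 7 plants that carry these labels, out of 322 in the series. Small RNAs of leaf were sequenced from greenhouse plants aged 45 days, and reads were counted at 64 MIRNA loci. A locus inside the varied segment is called cis, and any other locus is called trans. Of the 64 loci, 2 are cis for 7S (MIR171g and Cluster_253439) and 62 are trans.

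Both groups are haploid, and the genome outside the 7S segment is present once in each. The disomic plants also carry B chromosome material, which the controls lack. The same 3 control plants are the control of the 3L disomies. The tables hold only MIRNA loci, so neither the second copy of 7S nor the leaf identity could be checked against other genes. Nothing in the labels says that the plants of a group were grown apart, so the p-values cover no spread beyond these plants. In the main fit that spread was pooled over all loci tested.

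Mature miRNAs are short RNAs, cut from hairpin precursors, that guide the silencing of messenger RNAs with a near-complementary site. In plants, miR171 pairs with messenger RNAs of GRAS transcription factors, which in Arabidopsis keep meristem cells undifferentiated and promote branching. Where a gene product follows gene dosage, a second copy is read as a doubling, which is 1 on the log2 scale.

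The mature sequences of the 2 cis loci are shown first because they are what the second copy of 7S carries, with bases 2 to 8 (the seed) in capitals. MIR171g lies at chr7:43696495-43696690 and Cluster_253439 at chr7:32518865-32519066 of the W22 genome.
MIR171g: uGAGCCGAgccaauaucacuuc
Cluster_253439: aUGUUAUUuggucugcgacccgug
The other MIR171 loci follow for comparison, since they are named for the same family. Cluster_42505 has no miRNA name and is listed because it shares the sequence of MIR171m.
MIR171e, MIR171f, MIR171i and MIR171n: uGAUUGAGccgugccaauauc
MIR171m and Cluster_42505: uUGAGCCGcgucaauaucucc
MIR171j: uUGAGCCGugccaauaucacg
No other locus of the 64 had the mature sequence of MIR171g or its seed. The seed was compared only at bases 2 to 8 from the start of each sequence. The longest run of identical bases of MIR171g was 9 with MIR171e, 7 with MIR171m and 11 with MIR171j. Aligned without gaps, MIR171g matched MIR171e at 16 of 17 overlapping bases, MIR171m at 16 of 20 and MIR171j at 18 of 20.

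A predicted target site of MIR171g, in the B73 gene Zm00001d028526 (chr1:38187938-38189632, assembly AGPv4, described as a GRAS transcription factor), shows the pairing. In the site, 18 of 22 bases pair with MIR171g and are in capitals. The lower-case letters are 3 wobble pairs and 1 mismatch.
Zm00001d028526: cggGUGAUAUUGGuUCGGCUCA
The level of this messenger RNA was not measured in these tables.

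MIR171g was lower, not higher, in plants with the second copy of 7S. The abundance, in reads per 1000000 mapped reads (RPM), was 50.99 in 7Sch1, 22.86 in 7Sch11, 50.96 in 7Sch35 and 44.02 in 7Sch5. In the controls it was 95.95 in Hh57, 95.61 in Hh58 and 88.78 in Hh60. All 4 disomic plants were below all 3 controls, with a wide gap between the groups, and 7Sch11 was the lowest. The values rest on 89 to 189 counts per disomic plant and 153 to 180 per control. Mean abundance was 42.2 ± 13.3 RPM (SD, n = 4) against 93.4 ± 4.04 RPM (SD, n = 3), a ratio of 0.452. The fitted log2 fold change was -1.26 (SE 0.22, 95% interval -1.70 to -0.83, FDR 1.17e-06 by the edgeR quasi-likelihood test over 45 loci), and the interval holds neither 0 nor the doubling of 1. On the single value, the exact two-sided permutation test gave p = 0.0571, the smallest that 4 plants against 3 allow. In bulk leaf, fewer cells with the miRNA and less miRNA per cell cannot be told apart.

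**Figure D1:**
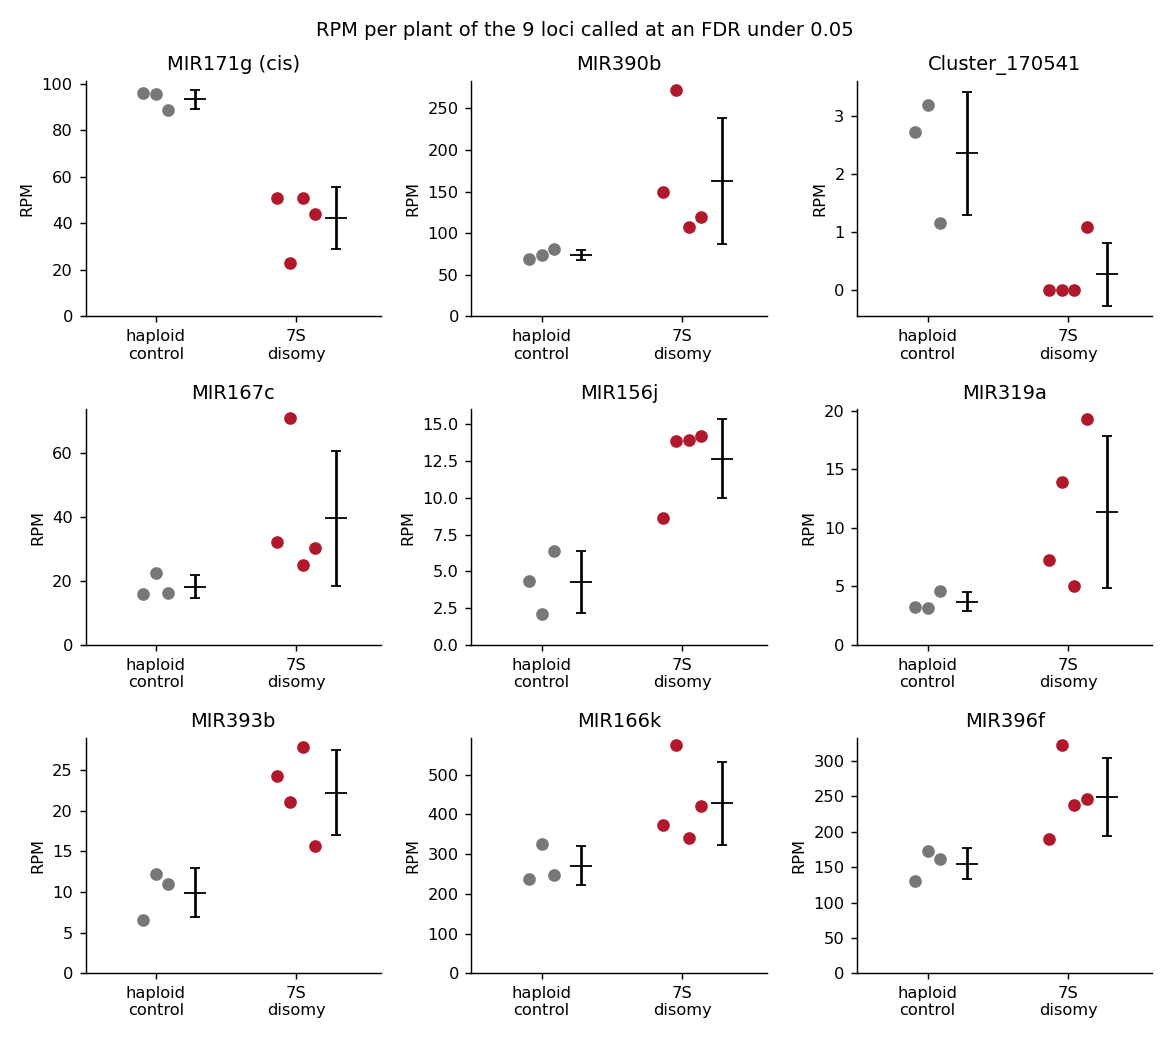
RPM of the 9 loci called at an FDR under 0.05, 1 panel a locus, with a point for each plant (grey, 3 haploid controls; red, 4 disomies of 7S) and the mean with SD beside the points. In every panel the 4 disomic plants lie on one side of the 3 controls, and MIR171g and Cluster_170541 are the panels where they lie below.

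The disomic libraries were deeper than the controls, with 2748609 to 3892832 mapped reads against 1723268 to 1882613. When all 7 libraries were thinned to the shallowest, the fold change of MIR171g was -1.10 and was still called (FDR 0.00239). The 7 libraries are listed under 1 sequencing experiment. The choice of control mattered more. The 4 haploid controls of 1S, from that same experiment, had 54.8 ± 16.1 RPM of MIR171g (SD, n = 4), and the disomic plants overlapped them. Against those plants the log2 fold change was -0.55 and was not called (FDR 0.159).

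The second cis locus, Cluster_253439, had no count in any of the 7 plants. With 3 counts as the floor, this allows up to 0.771 to 1.09 RPM in the disomic libraries and 1.59 to 1.74 RPM in the controls, so a difference was not detectable at this depth. Over all plants of the haploid experiments, 19 had a count at this locus, and the highest level was 1.24 RPM. It has no miRNA name.

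The trans members of MIR171 did not share the lower level of MIR171g. MIR171m had 45.8 to 80.2 RPM in the disomic plants and 35.98 to 50.46 RPM in the controls, and the groups overlapped. MIR171e had 25.6 to 43.9 RPM against 23.2 to 27.6 RPM, also with overlap. The fitted log2 fold changes of MIR171m, MIR171e, MIR171n and MIR171j were 0.26, 0.24, 0.19 and 0.03, and none was called (FDR 0.491 to 0.959). MIR171f and MIR171i had at most 1 count in any plant and were not tested. Cluster_42505, with no miRNA name, had a log2 fold change of -0.07 and was not called (FDR 0.937). MIR171e, MIR171f, MIR171i and MIR171n have the same mature sequence, so their reads cannot be assigned to one locus with certainty. The same holds for MIR171m and Cluster_42505. Whether MIR171g differs from the other members in its change was not tested.

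Across all loci, 45 had a mean abundance of at least 0.5 RPM over the 7 plants and were tested, 1 cis and 44 trans. Of these, 9 were called at an FDR under 0.05, which is 20% of the loci tested. The calls were 7 trans loci higher in the disomies (15.6%), MIR171g and 1 trans locus lower (4.44%). In 12 loci (26.7%) the RPM ranges of the groups did not overlap, 8 with every disomic plant above and 4 with every disomic plant below, and all 9 called loci were among them. The median log2 fold change over the 45 loci was -0.07.

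**Figure D2:**
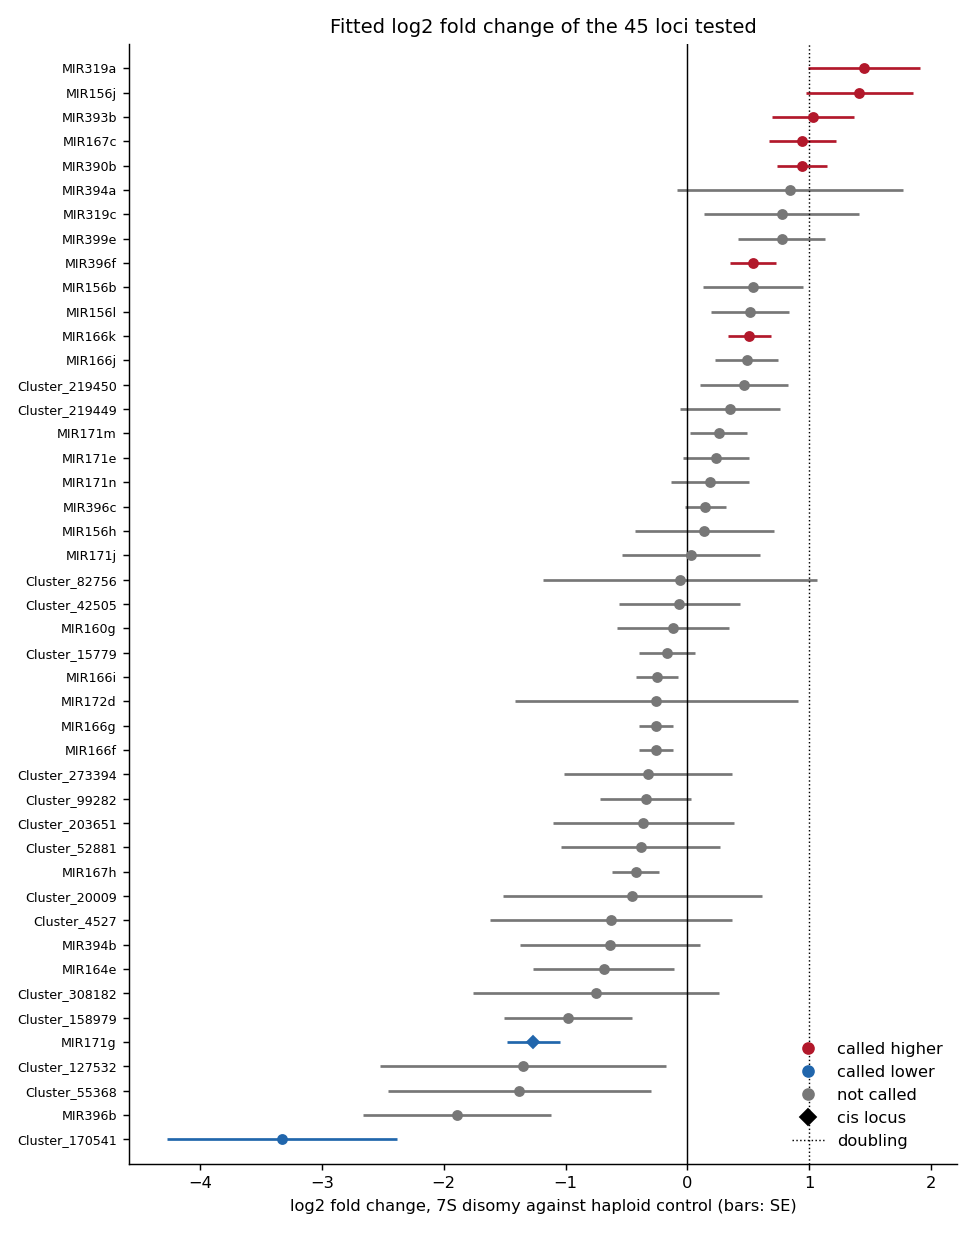
Fitted log2 fold change of the 45 tested loci, 7S disomy against haploid control, with bars of 1 SE (red, called higher; blue, called lower; grey, not called; diamond, the cis locus MIR171g; dotted line, a doubling). MIR171g lies at -1.26, far from the dotted line, and the called trans loci above 0 lie between 0.51 and 1.45.

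These calls rest on a spread shared by all loci: the fit assigned each locus 225 degrees of freedom, although 7 plants leave few of its own. With a limit of 1 RPM in place of 0.5 RPM, the degrees of freedom fell to 14.2 and MIR171g was the 1 locus called (FDR 0.0182). Without control plant Hh58, MIR171g was again the 1 locus called (FDR 0.0427). Against the haploid controls of 1S, 2 of 43 loci were called, MIR393b and Cluster_170541. The 7 to 2 split between higher and lower loci also depended on the scaling. It was 5 to 6 with RLE factors and 3 to 2 with library totals that leave out MIR166f and MIR166g. RLE factors shifted the median of all loci by -0.15, and division by all mapped reads shifted it by 0.14.

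MIR166f and MIR166g, which carry 1 mature sequence of a family that represses HD-ZIP III genes of leaf polarity, took most of the reads. Together they held 94.4% to 95.7% of the counts on loci in the disomic plants and 96.1% to 96.2% in the controls, so the share of the other loci moved with the group. MIR166f had 30298 to 39008 RPM in the disomic plants and 35012 to 43204 RPM in the controls, and the groups overlapped. Its log2 fold change was -0.26 (SE 0.14) and that of MIR166g was -0.26 (SE 0.14), and neither was called (FDR 0.196 for both). With RLE factors both were called lower, and the part of this shift in the calls of other loci was not tested.

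The called trans loci are shown with their mature sequences, seed in capitals, since none shares its mature sequence with a cis locus.
MIR390b: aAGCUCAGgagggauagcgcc
MIR167c: aUCAUGCUguggcagccucacu
MIR393b: uCCAAAGGgaucgcauugauc
MIR319a: uUGGACUGaagggugcucccu
MIR396f: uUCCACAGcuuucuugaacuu
MIR156j: aUGACAGAagagagagagcac
MIR166k: uCGGACCAggcuucaaucccu
Cluster_170541: aGAGGGGAuuucaguggcuga
MIR319a shares its sequence with MIR319c, and MIR166k shares its sequence with MIR166j.

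Among 6 tested loci named for miRNA families with a role in auxin signalling, 3 were called higher, beside 7 of 45 over all loci (15.6%). The other 3 had values below 0 and were not called. MIR390b starts the production of small RNAs against auxin response factor genes. It had 149 RPM in 7Sch1, 273 in 7Sch11, 108 in 7Sch35 and 119 in 7Sch5, against 68.7 in Hh57, 73.3 in Hh58 and 80.7 in Hh60. Plant 7Sch11 stood highest and every disomic plant exceeded the controls. The log2 fold change was 0.94 (SE 0.21, FDR 0.000192).

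MIR393b, whose miRNA represses auxin receptor genes, had 24.3, 21.1, 27.9 and 15.6 RPM in 7Sch1, 7Sch11, 7Sch35 and 7Sch5. The controls had 6.54, 12.22 and 11.03 RPM in Hh57, Hh58 and Hh60. The groups did not overlap, and the log2 fold change was 1.03 (SE 0.33, FDR 0.0141). Of the loci called higher, MIR393b was the one still called against the haploid controls of 1S, with a log2 fold change of 1.14. Its call was lost without 7Sch35 (FDR 0.0662) or without Hh57 (FDR 0.0904).

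MIR167c is named for a family whose miRNA represses a group of auxin response factor genes. Whether the mature sequence shown for this locus does so was not tested. MIR167c had 32.1, 70.6, 24.9 and 30.2 RPM in the same order of disomic plants. The controls had 15.8, 22.3 and 16.2 RPM. Plant 7Sch11 stood apart from the other 3, which were above every control by a smaller distance. The log2 fold change was 0.95 (SE 0.28, FDR 0.00852), and without 7Sch11 it was 0.61 and not called (FDR 0.0790). Plants with 1 B chromosome and with none (1B and 0B) were also compared. The paper describes them as W22 diploids from an earlier study, and they are listed under another sequencing experiment than the 7S plants. In 1B against 0B, MIR167c was higher by 1.39 on the log2 scale (SE 0.38, FDR 0.0128) and was the 1 locus called of 43 (2.33%). In that test plants EB37 and EB40 were counted as 1 sample, since a test of their counts found no difference beyond sampling noise (chi-square per degree of freedom 1.28, p = 0.176). With the 2 kept apart, MIR167c was called as well (1.37, FDR 0.00646). The part of B chromosome material in the 7S value was not tested.

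The other tested auxin loci were not called. MIR167h, another MIR167 locus with another mature sequence, had 120 to 172 RPM in the disomic plants and 164 to 197 RPM in the controls, with overlap, and a log2 fold change of -0.43 (FDR 0.110). Between 1B and 0B plants MIR167h had a log2 fold change of -0.51 and was not called here (FDR 0.773), nor was it with EB37 and EB40 kept apart (-0.61, FDR 0.402). The paper, in contrast, reported both MIR167h and MIR167c as changed between 1B and 0B, and left both out of its further analysis. MIR164e and MIR160g had log2 fold changes of -0.69 and -0.12. MIR167a was not tested, with 1 or 2 counts in the plants that had any.

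Of 5 tested loci of leaf growth regulators, 2 were called higher, beside 15.6% over all loci. MIR319a, whose miRNA represses TCP genes that end cell division in the growing leaf, had 7.28, 13.9, 5.04 and 19.3 RPM in 7Sch1, 7Sch11, 7Sch35 and 7Sch5, against 3.27, 3.19 and 4.64 RPM in the controls. The disomic plants spread widely but stayed above the controls. The log2 fold change was 1.45 (SE 0.46, FDR 0.0136), with the call lost without 7Sch11 (FDR 0.0577) or without 7Sch5 (FDR 0.0871).

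MIR396f, whose miRNA represses growth-regulating factor genes, had 190, 323, 237 and 247 RPM in the disomic plants and 131, 173 and 162 RPM in the controls. The lowest disomic plant was close to the highest control. The log2 fold change was 0.54 (SE 0.19, FDR 0.0241), and this call was lost under 10 of 18 alternatives, more than for any other called locus. Of the leaf growth loci not called, MIR396b had 0 to 1.46 RPM against 1.64 to 4.25 RPM, ranges that did not overlap, with a log2 fold change of -1.89 (FDR 0.0674).

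MIR156j rose, at the other arm of the same chromosome (chr7:133874247-133874509, on 7L). The miR156 family holds plants in the juvenile phase by repressing SPL genes. MIR156j had 8.63, 13.9, 13.9 and 14.2 RPM in 7Sch1, 7Sch11, 7Sch35 and 7Sch5 and 4.36, 2.12 and 6.38 RPM in Hh57, Hh58 and Hh60. Plant 7Sch1 lay below 3 nearly equal disomic plants, and all 4 exceeded the controls. The log2 fold change was 1.41 (SE 0.44, FDR 0.0122). Against the haploid controls of 1S, which had 9.80 to 15.4 RPM, the sign turned to -0.24.

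Of 5 tested loci of phase change regulators, MIR156j was the 1 called, the same share as the 20% over all loci. MIR156l had 10.5 to 27.9 RPM against 9.86 to 15.9 RPM, MIR156b had 4.59 to 17.7 RPM against 3.27 to 10.6 RPM, and MIR156h had 2.97 to 4.44 RPM against 2.18 to 4.78 RPM. In all 3 the groups overlapped, and their log2 fold changes were 0.52, 0.54 and 0.14. MIR156l and MIR156h have the same mature sequence.

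MIR166k rose. It had 375, 575, 341 and 421 RPM in the disomic plants and 239, 327 and 248 RPM in the controls. The lowest disomic plant was close to the highest control. The log2 fold change was 0.51 (SE 0.18, FDR 0.0241). This call was lost under 7 of 18 alternatives, among them RLE factors (FDR 0.118), DESeq2 (FDR 0.0604), the edgeR exact test (FDR 0.0872) and totals without MIR166f and MIR166g (FDR 0.209). MIR166j, on 7L and with the same mature sequence, had 31.7 to 53.4 RPM against 21.8 to 30.8 RPM, without overlap, and a log2 fold change of 0.49 (SE 0.26, FDR 0.196) that was not called. The other 3 tested MIR166 loci carry a different mature sequence and had values below 0. MIR166k was thus the 1 called of 5, again the share of 20% over all loci.

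Cluster_170541, with no miRNA name, was the trans locus that fell. It had no count in 7Sch1, 7Sch11 and 7Sch35 and 1.09 RPM in 7Sch5, against 2.73, 3.19 and 1.16 RPM in Hh57, Hh58 and Hh60. These levels rest on 3 counts in all 4 disomic plants and 13 in the 3 controls. The abundance in the disomies was 9.15% of that in the controls (exact 95% interval 1.67% to 33.3%, for counting error only). The FDR was 0.00763, and the call was lost without Hh57 (FDR 0.0595) or without Hh58 (FDR 0.124).

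On the long arm of chromosome 7, which was present once in both groups, 5 loci were listed and 3 were tested. MIR156j was called, MIR166j was not, and Cluster_273394 had 0.36 to 4.59 RPM against 1.16 to 3.19 RPM with a log2 fold change of -0.32 (FDR 0.760). Cluster_261872 had 1 or 2 counts in each disomic plant and at most 1 in a control, and Cluster_276809 had 1 count in 7Sch11 and 1 in 7Sch35.

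Medians by list stand beside the -0.07 over all 45 tested loci. The median log2 fold change was 0.41 for 6 auxin loci, 0.54 for 5 leaf growth loci, 0.52 for 5 phase change loci, 0.19 for 5 MIR171 loci and -0.25 for 5 MIR166 loci. For 3 tested nutrient and stress loci (MIR394 and MIR399) it was 0.77, and none was called. For 16 tested loci without a miRNA name it was -0.37, with 14 values below 0 and 1 called lower. Among the latter, Cluster_158979 had 1.54 to 4.37 RPM against 5.22 to 5.45 RPM, without overlap, and was not called (FDR 0.196).

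The ratio of mean RPM, disomic over control, had a median of 1.09 over 43 trans loci (quartiles 0.844 and 1.58), with 24 loci above 1 and 19 below. Ratios above 6 or below 1/6 were left out, which took 1 locus, Cluster_170541. Plant by plant the median ratio was 1.05 in 7Sch1, 1.31 in 7Sch11, 1.06 in 7Sch35 and 0.982 in 7Sch5. Plant 7Sch11 had the highest of the 4 values at 18 of 45 loci, and also the lowest MIR171g. It held the largest share of mapped reads outside MIR166f and MIR166g, 0.305% against 0.230% to 0.246% in the other disomic plants and 0.194% to 0.232% in the controls. The median over trans loci without 7Sch11 was 1.04.

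Over the 45 tested loci, the median coefficient of variation between plants was 31.5% in both groups, and it was wider in the disomic plants at 28 loci. Set against counting noise, a chi-square over loci gave 1.51 to 2.01 per degree of freedom between the 7S controls. Between the disomic plants it gave 6.92 to 22.8. The disomic libraries were deeper, and this measure grows with depth. Pairs of the 7L controls, with shallower libraries than the 7S controls and from another sequencing experiment, gave 1.51 to 24.3. Pairs of the 1S controls gave 2.07 to 9.38. The part of depth was not tested. The 7S control pairs exceeded sampling noise by little (unadjusted p from 0.000832 to 0.0426). Libraries of 1 RNA can do so too, so these values do not settle whether the 3 controls are independent. The labels name 3 plants, and they were counted as 3. With any 1 control left out, MIR171g was still called (FDR 0.000447 to 0.0427).

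The 19 loci below 0.5 RPM reached at most 0.425 RPM on average. Of these, 10 had counts in both groups, 7 in disomic plants alone, and 2 had none in any of the 7 plants (Cluster_253439 and MIR169o). Cluster_279327, chosen after its values were seen, had 1, 4, 1 and 1 counts in the disomic plants and none in the controls. The disomic libraries were deeper, and these loci were not tested.

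Across the 25 haploid groups, MIR171g placed the 7S disomies in the middle and their controls near the top. By mean RPM, 7Sc_h2D ranked 13 and 3La_7Sc_h1D ranked 23, counted from the lowest. The lowest means were 9.13 ± 3.89 RPM (SD, n = 4) in 3La_h2D and 10.3 ± 5.16 RPM (SD, n = 6) in 1Sb_h2D. Of 17 disomies, 12 had a lower mean than 7S, and of 8 control groups, 6 had a lower mean than the 7S controls. In 8Lc_h2D and 9Lc_h2D, the neighbours of 7S in this order, the means were 45.1 ± 20.7 RPM (SD, n = 4) and 39.9 ± 12.5 RPM (SD, n = 5). Every neighbouring pair of groups overlapped, 24 of 24. Ordering by mean favours such overlap, and differences between neighbours were not tested. The plants of 7S disomies overlapped those of 14 other disomies and 4 control groups, and the 7S controls overlapped 4 other control groups and 3 disomies. Groups were sequenced in several experiments, and these levels are a description.

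**Figure D3:**
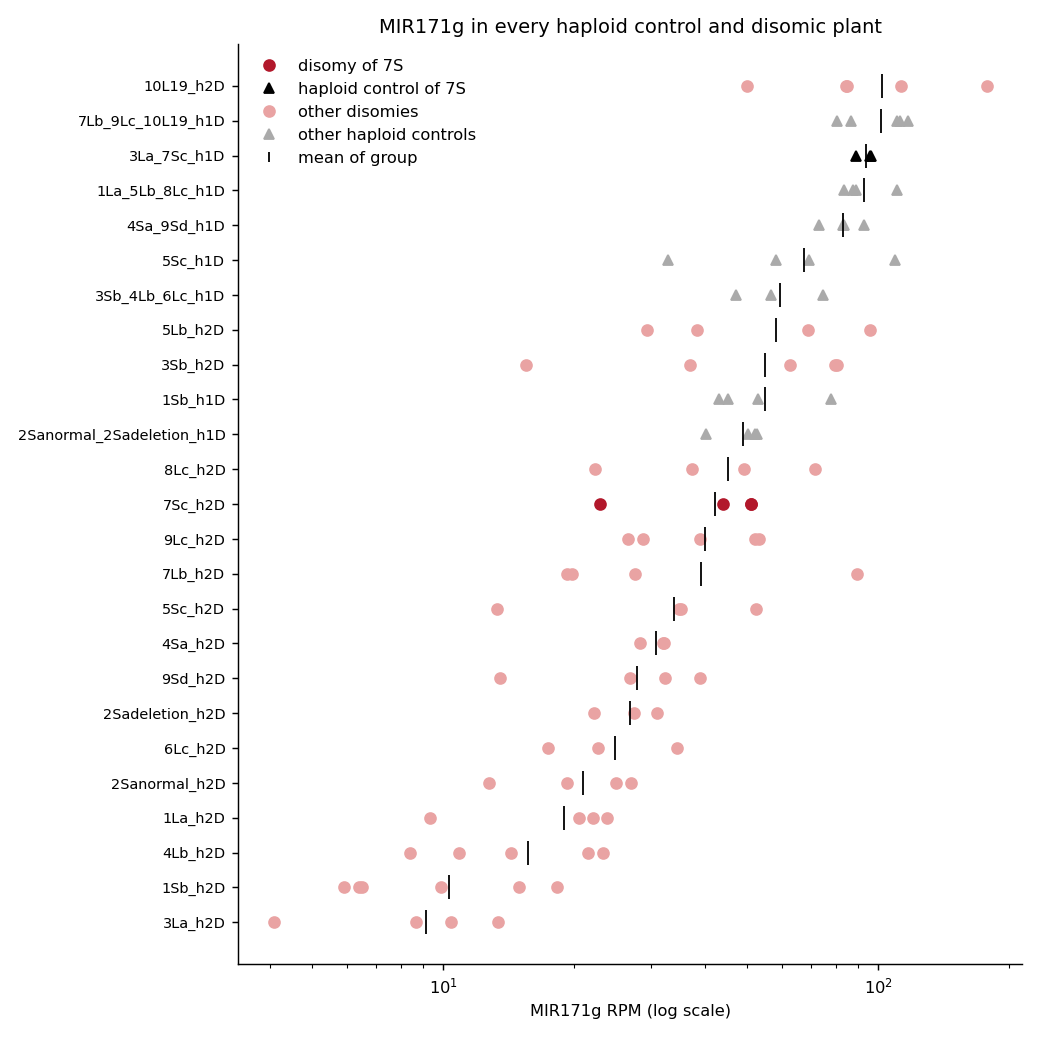
MIR171g abundance in RPM on a log scale in each haploid plant, by group and ordered by mean (circles, disomies; triangles, haploid controls; red, 7S disomy; black, its control; bar, mean). The 7S disomies lie at 22.86 to 50.99 RPM and their controls at 88.78 to 95.95 RPM, while the disomies of 3L and 1S lie lower, at 4.08 to 18.2 RPM.

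Over those plants, the locus most like MIR171g in log2(RPM + 1) was MIR172d, with a Pearson r of 0.48. MIR167h followed with 0.40, Cluster_261872 with 0.35, MIR396c with 0.34 and Cluster_55368 with 0.31, out of 46 loci. At the negative end, r was -0.45 for MIR156l, -0.43 for MIR171e and for MIR167c, and -0.42 for MIR156h. These correlations are descriptions, since plants share groups, experiments and library composition.

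The change of MIR171g differed from that in 2 of 3 other disomies compared. In 3L disomies, where MIR171g is a trans locus, it had 4.08 to 13.4 RPM, and the log2 fold change against the same controls was -3.59. The level in the 7S disomies was higher by 2.36 on the log2 scale (SE 0.39, 95% interval 1.52 to 3.19, FDR 0.00159). In 1S disomies it had 5.91 to 18.2 RPM against 54.8 ± 16.1 RPM (SD, n = 4) in their controls, a log2 fold change of -2.86. The 7S change was smaller in size by 1.56 (SE 0.43, FDR 0.0291). This difference was no longer called without 7Sch35 or without any 1 of the 3 7S controls (FDR 0.0965 to 0.147). Nor was it called with all mapped reads as library size (FDR 0.0629). Plant 1Sbh9 of the 1S disomies came from another sequencing experiment, and without this plant the difference was 1.70 (FDR 0.00482). In 7L disomies, from another sequencing experiment, it had 19.3 to 89.5 RPM against 80.3 to 117 RPM, a log2 fold change of -1.40. The difference of 7S from 7L was -0.01, with a 95% interval of -1.02 to 1.00, which holds differences of up to 2-fold either way.

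**Figure D4:**
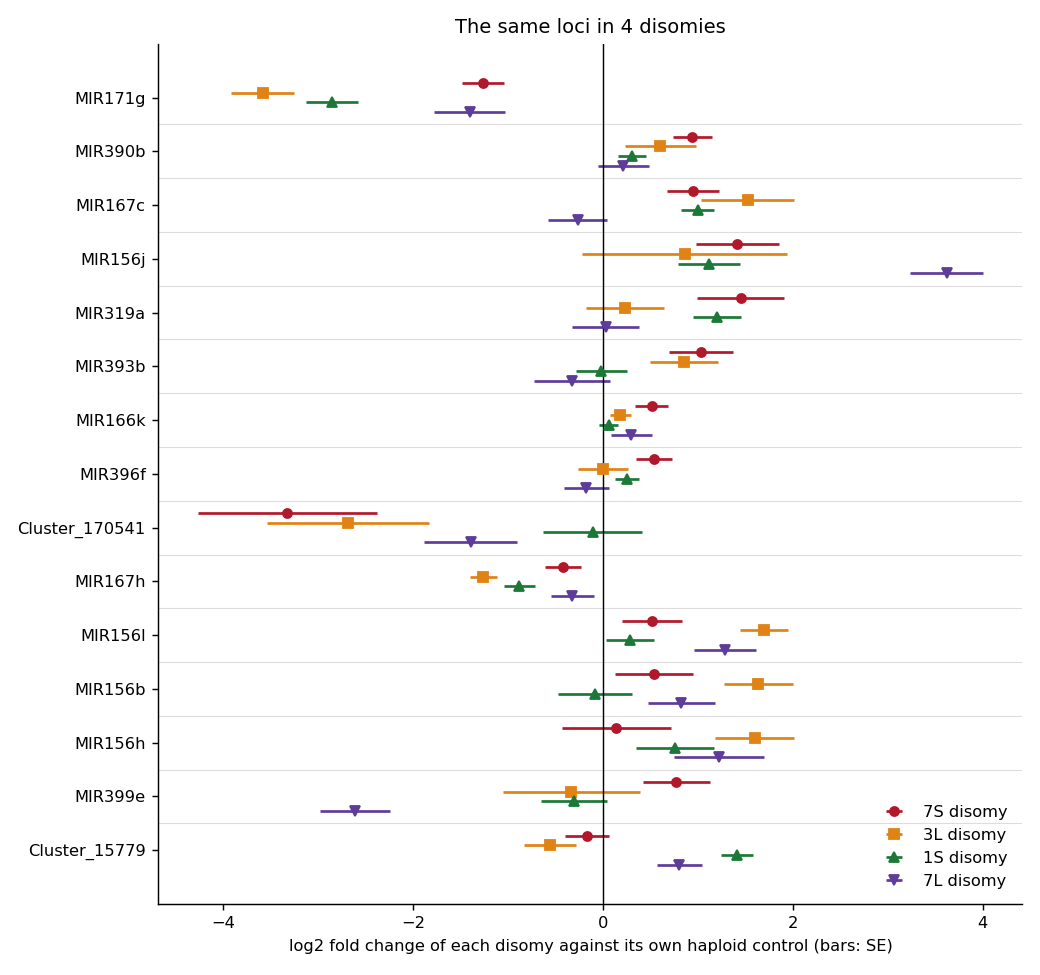
Log2 fold change of 15 loci in the disomies of 7S, 3L, 1S and 7L, each against its own haploid control (7S and 3L share theirs), with bars of 1 SE. MIR171g is below 0 in all 4, at -1.26 in 7S and -3.59 in 3L, and MIR156j lies farthest right in 7L, at 3.62, where it is cis.

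Against 3L, 7 of 44 loci differed (15.9%). Besides MIR171g, MIR167h and MIR396c were higher in the 7S disomies, by 0.82 and 0.54. MIR156h, MIR156l, MIR156b and MIR166i were lower, by log2 differences of -1.47, -1.22, -1.17 and -0.49. Of 10 alternatives, 4 lost the call of MIR396c, 4 that of MIR156b and 7 that of MIR166i. MIR156l, for example, had 10.5 to 27.9 RPM in the 7S disomies and 39.3 to 59.8 RPM in the 3L disomies. With the 3L plants of the sequencing experiment of 7S alone, 3Lah33 and 3Lah36, 9 loci differed. Plants 3Lah9 and 3Lah10 came from another experiment and had 0.43 and 1.30 RPM of MIR156j against 12.99 and 20.70 RPM in the other 2, so the experiment moved with that level within 3L.

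Against 1S, 2 of 44 loci differed (4.55%). Cluster_15779, cis for 1S, had 38.6 to 59.4 RPM in the 7S disomies and 45.8 to 58.4 RPM in their controls, with overlap. In 1S disomies it had 159 to 266 RPM against 38.7 to 66.4 RPM, and the difference of the changes was -1.61 (SE 0.26, FDR 0.000107). Between 1B and 0B plants Cluster_15779 had a log2 fold change of -0.75 (FDR 0.428), and with EB37 and EB40 kept apart it was called lower (-0.94, FDR 0.0409). The other locus was MIR171g.

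Against 7L, 3 of 48 loci differed (6.25%). MIR156j had 30.7 to 84.4 RPM in 7L disomies and 1.87 to 6.78 RPM in their controls, and its change in 7S was smaller by a log2 difference of -2.38 (SE 0.60, FDR 0.00639). MIR399e, whose miRNA acts in phosphate uptake, had 10.9 to 20.8 RPM in 7S disomies and 6.38 to 11.2 RPM in controls, with overlap and no call (log2 fold change 0.77, FDR 0.115). In 7L it had 1.81 to 7.19 RPM against 22.4 to 39.6 RPM, and the difference was 3.23 (SE 0.47, FDR 5.14e-06). This difference rests on each line's own controls, and the 7L plants came from another sequencing experiment. The haploid controls of 1S had 10.5 to 43.1 RPM of MIR399e. Over 18 alternatives its log2 fold change in 7S ran from -0.69 to 0.97. The difference of Cluster_15779 was -1.14 (SE 0.28, FDR 0.00639). Of 9 alternatives, 4 lost the call of Cluster_15779 and 3 that of MIR156j.

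The control groups of 7S and 1S, both haploid with no varied segment and from 1 sequencing experiment, also differed from each other. Of 46 loci tested, 5 were called (10.9%). MIR171g was higher in the 7S controls by 0.69 (SE 0.19, FDR 0.0197), and MIR166f was higher by 0.11. MIR156j, MIR399e and MIR396f were lower by log2 differences of -1.69, -1.46 and -0.43. MIR171g, MIR156j and MIR396f are thus loci that were called in 7S disomies and also between these controls. Without Hh58 edgeR called none of 44, with 7 at an unadjusted p under 0.05.

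**Figure D5:**
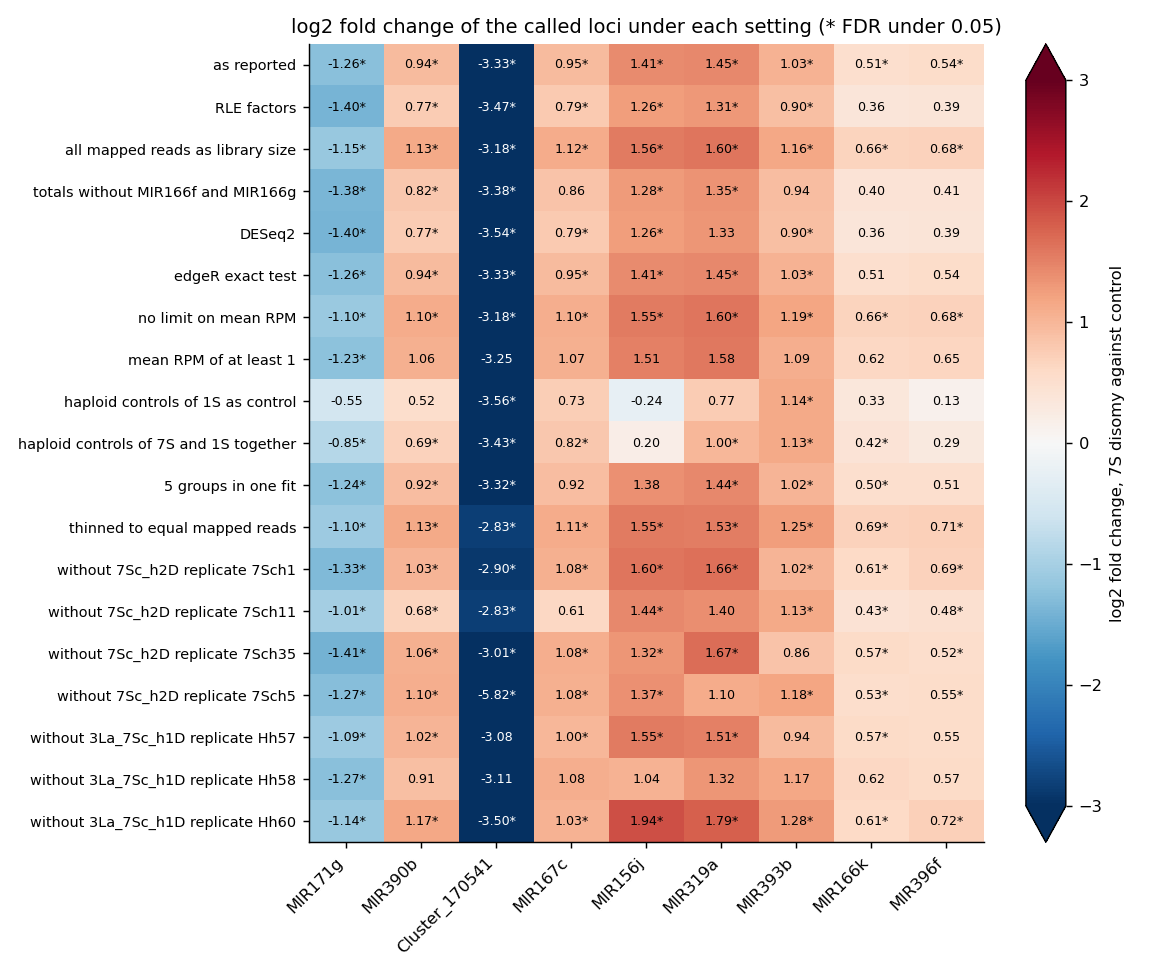
Log2 fold change of the 9 called loci (columns) as reported and under each of 18 alternatives (rows), with an asterisk for an FDR under 0.05 (colour, the fold change, cut at 3 in either direction). MIR171g is below 0 in every row, from -1.41 to -0.55, and keeps its asterisk except with the controls of 1S.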

How the data were processed

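Reads of leaf small RNA libraries were trimmed by the authors with cutadapt 1.16, filtered for quality and structural RNAs, and aligned to the W22 genome with ShortStack. The authors deposited raw counts per MIRNA locus and RPM, the counts scaled to 1000000 mapped reads per library. Mapped reads were recovered as deposited count over RPM, which varied between loci of a library by 1.5e-09 at most, relative to its value. Names, sequences and cis regions of loci are those of the study. Members and lists were chosen with earlier results of these data known.

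The quasi-likelihood test of edgeR 4.0.16 (R 4.3.3, TMM factors) was run on counts of loci whose mean over both groups reached 0.5 RPM, with Benjamini-Hochberg adjustment over the loci tested, called at an FDR under 0.05. The SE was the log2 fold change divided by the square root of F. The script was tested on simulated data. Differences between disomies were contrasts in 1 fit. DESeq2 1.42.0, edgeR's exact test, other scalings, limits and controls, thinned counts and leaving out each plant were alternatives. Floors and intervals on counts cover counting error only.

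Named loci were both cis loci, every called locus, loci of 7L, MIR171 loci, MIR166f, MIR166g, MIR167c, MIR167h, Cluster_170541, and up to 5 loci called per difference test by p. MIR396c and MIR166i, called past that number, were added after their values were seen. Cluster_42505 was named for the sequence it shares with MIR171m. Others named in a list or count are there by that list or count. How ShortStack placed reads matching several loci was not tested. In all, 17 loci share a mature sequence with another locus.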

Additional observations from a re-analysis of the deposited data

Results flagged for a closer look

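In 46 sets of 4 to 10 plants examined, 3 held a plant far from the rest, and chance gives about 1 in 20. Among the 7S disomies, MIR156j was lowest in 7Sch1 at 8.63 RPM, while the other 3 plants had 13.9 to 14.2 RPM, and MIR167c was highest in 7Sch11 at 70.6 RPM, while the others had 24.9 to 32.1 RPM. Among the 7L disomies, MIR171g was highest in 7Lbh41 at 89.5 RPM, while the others had 19.3 to 27.5 RPM.

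The 7S change differed from that of another disomy in 12 tests of the difference. These were 7 of 44 loci against 3L (15.9%), 2 of 44 against 1S (4.55%) and 3 of 48 against 7L (6.25%). Kept under every alternative run for these tests were MIR171g, MIR167h, MIR156h and MIR156l against 3L. Cluster_15779 against 1S and MIR399e against 7L were kept as well. The other calls were each lost under some alternatives. Against 3L the log2 difference was 2.36 for MIR171g, 0.82 for MIR167h, -1.47 for MIR156h, -1.22 for MIR156l, -1.17 for MIR156b, 0.54 for MIR396c and -0.49 for MIR166i. Against 1S it was -1.61 for Cluster_15779 and 1.56 for MIR171g. Against 7L it was 3.23 for MIR399e, -1.14 for Cluster_15779 and -2.38 for MIR156j.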

How the results depend on the processing

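MIR171g stayed below 0 under all 18 alternatives and was called in 17 (log2 fold change -1.41 to -1.01 with a plant left out), with the haploid controls of 1S as the exception (-0.55, FDR 0.159). The count of 9 called loci became 5 with totals that leave out MIR166f and MIR166g, 1 with a limit of 1 RPM and 2 with the controls of 1S, and it was 1 to 11 with a plant left out, lowest without Hh58. MIR156j reversed to -0.24 with the controls of 1S. The median trans ratio of 1.09 was 0.936 over loci with a sequence of their own, 1.24 with a limit of 1 RPM, and 0.966 (without Hh57) to 1.22 (without Hh58) with a plant left out. With a plant left out, 4 to 7 loci differed from 3L, 1 to 3 from 1S, 1 to 4 from 7L and 0 to 3 between the 7S and 1S controls, the 0 without Hh58 (edgeR, 7 loci at an unadjusted p under 0.05). With all mapped reads as library size, 1 locus differed from 1S, and 3 differed between those controls, as with a limit of 1 RPM. With EB37 and EB40 kept apart, 2 loci differed between 1B and 0B, MIR167c and Cluster_15779. The causes were not tested. No paired analysis was possible because the plant numbers do not match between groups. A locus at 1 RPM has about 2 to 4 counts per library at this depth, and loci below it have fewer.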
